A study of Mus musculus with 18 samples.

Results

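Hmgn1 encodes a small protein that binds the nucleosome core, where it competes with linker histone H1 and loosens the packing of chromatin. In embryonic stem (ES) cells, the pluripotent cells of the early embryo kept dividing in culture, HMGN1 is known to lie at enhancers and at promoters rich in CpG dinucleotides. ES cells hold pluripotency through factors such as OCT4, SOX2 and NANOG, together with a "naive" set sustained by the cytokine LIF, and they move to a "primed" state before they enter a lineage.

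The comparison was between Hmgn1 -/- and Hmgn1 +/+ ES cells, both of strain C57/B6, and it took the 6 ES cell arrays of a series of 18 Affymetrix arrays. Each genotype had 3 arrays, titled as biological replicates, and the other 12 arrays, of neural progenitors and neurons made from such cells, were not part of the contrast. All cells grew with LIF and serum replacement, either on mitomycin-treated embryonic fibroblasts or without feeders, and the labels do not say which arrays had feeders. They do not say either whether the 3 arrays of a group came from separate cultures, or how many lines stood for each genotype. The p-values therefore measure the spread between these arrays, which may be technical, and the loss of Hmgn1 cannot be told apart from other differences between the lines.

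The values are intensities, the brightness of the probe set that reads a transcript, and they were compared as log2(value + 1), -/- minus +/+. A gene was tested if its brightest probe set reached the 40th percentile of the array on at least 3 of the 6 arrays. That percentile, an intensity of 38.0 on average, served as the background bound. Of 18194 genes with a probe set of their own, 13220 were tested. A gene was called higher or lower at a Benjamini-Hochberg adjusted p under 0.05 from limma fitted to the 6 arrays. The median difference of all tested genes was 0.04 (log2).

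The arrays resembled each other closely, with Pearson correlations across genes of 0.995 to 0.996 within a genotype and 0.991 to 0.994 between genotypes. The +/+ replicate 3 array stood somewhat apart: 21 genes lay at least 2-fold above its group mates, against 0 to 2 genes on any other ES cell array. The -/- replicate 3 array had the most genes at least 2-fold below its group mates, 11 against 1 to 5 on the others. All 8 ES cell markers checked were above the background bound, and their summed intensity was 47520 to 49710 on the +/+ arrays and 46430 to 47100 on the -/- arrays. Of 9 fibroblast markers on the array, 5 reached the bound (Col1a1, Col1a2, Thy1, Postn and Twist1), and Col3a1, Lum, Dcn and Prrx1 did not. The sum of the 9 was 452.5 to 532.4 in +/+ and 446.2 to 450.3 in -/- cells. The tested ones went both ways and none was called: Col1a1 and Col1a2 differed by -0.23 and -0.48, and Thy1, Dcn and Twist1 by 0.30, 0.25 and 0.18.

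Hmgn1 itself read lower in -/- cells, but the fall was partial. The probe set used for Hmgn1 read 11022, 11332 and 11089 on the +/+ arrays and 9057, 8770 and 9079 on the -/- arrays. The groups did not overlap, and the difference was -0.31 (SE 0.055, limma adjusted p = 0.036). Another pair of probe sets fell by 0.40 and 0.44, and a further one stayed below the background bound at 21.2 to 29.4 on all 6 arrays. The labels and files do not say which probe sets read the deleted stretch, and the signal that remains is no measure of protein. Leaving out any 1 of the 6 arrays took the adjusted p of the Hmgn1 probe set to between 0.082 and 0.135.

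Hmgn5, the X-linked member of the same family, rose. It read 753.6, 750.0 and 818.7 in +/+ and 1023, 1007 and 982.9 in -/- cells, a difference of 0.38 (SE 0.062, limma adjusted p = 0.032). Every omission of 1 array ended that call as well (adjusted p 0.065 to 0.119). Hmgn3 was not called (difference -0.30, SE 0.383, limma adjusted p = 0.667). Its +/+ replicate 3 array read 603.2 where the other +/+ arrays read 210.7 and 202.4, and without that array the difference was 0.21. The probe set for Hmgn2 also matches 3 predicted genes and was left out of the tests; it read 6675 to 7026 in +/+ and 6550 to 6764 in -/- cells, and these ranges overlapped.

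In all, 366 genes (2.77% of those tested) were called, 239 (1.81%) higher and 127 (0.961%) lower in -/- ES cells. In 29.8% of tested genes the arrays of the 2 genotypes did not overlap. The changes were mostly small: 49 of the rises and 31 of the falls were at least 1.5-fold, and 9 rises and 7 falls were at least 2-fold. These counts rest on few arrays. Leaving out 1 array left 17 to 85 rises and 13 to 32 falls, the fewest rises without -/- replicate 2 and the fewest falls without +/+ replicate 1. Without +/+ replicate 3 there were 36 and 32. Rises made up 65.3% of the called genes as deposited and 45.1% after quantile normalization, which called 144 higher and 175 lower. A fit that drew the spread from all 18 arrays called 1541 higher (11.7%) and 617 lower (4.67%), among them 360 of the 366 genes called from 6 arrays. ES cell arrays of a group varied more than neural ones, with a median SD of 0.090 and 0.089 (log2) in the ES cell groups against 0.060 to 0.082 in the others, and the counts from the 18 arrays are therefore given only beside those from 6.

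By fold change, the 15 largest rises and 15 largest falls of named genes were taken as examples. They came from called genes whose arrays did not overlap between genotypes, so that lack of overlap is a condition of choice and no result. Of these 30, 9 rises and 8 falls stayed past the threshold under all 19 alternative settings tried, including the omission of each array. These 17 are described first, except Uba1y, which is given with the Y-linked genes.

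**Figure D1:**
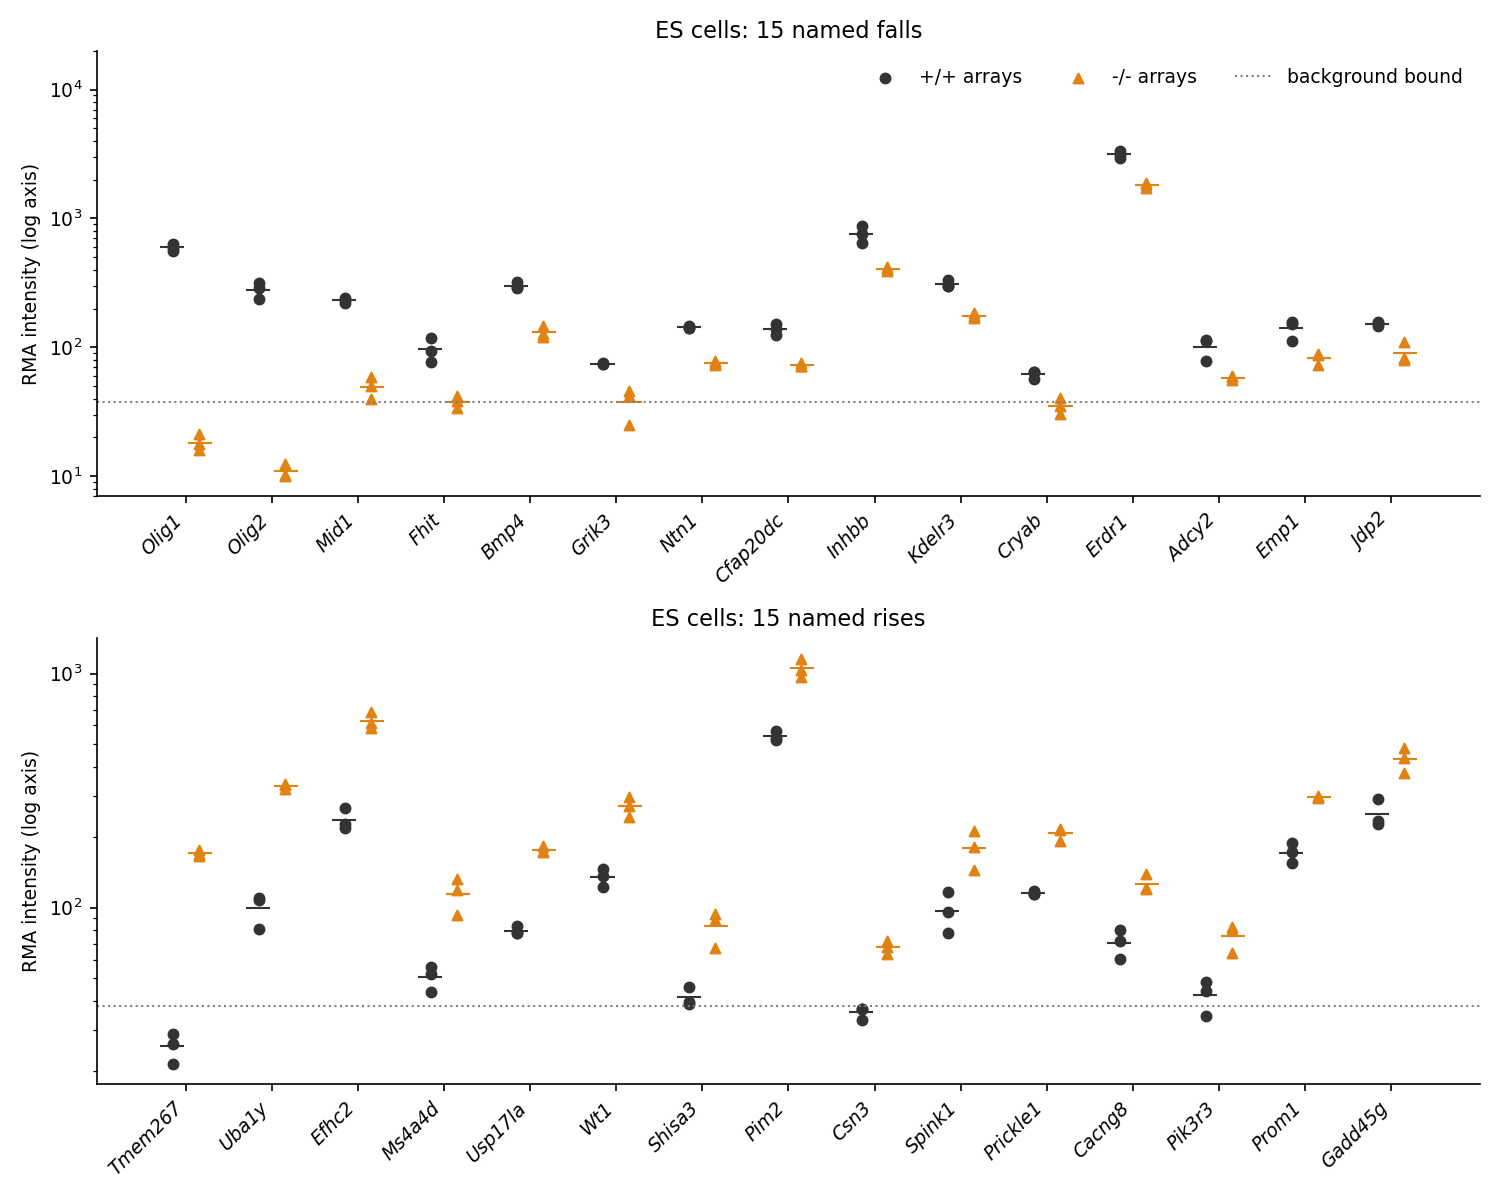
Intensity (log axis) of the 15 largest named falls and 15 largest named rises on each ES cell array, +/+ as dots and -/- as triangles, with short lines at the group means of 3 arrays and a dotted line at the background bound of 38.0. The genes were chosen among those without overlap between genotypes. The -/- arrays of Olig1 and Olig2 lie under the dotted line.

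The strongest change was the loss of Olig1 and Olig2 signal. These neighbouring genes on chromosome 16 encode basic helix-loop-helix transcription factors that specify oligodendrocytes and motor neurons. Olig1 read 629.8, 594.8 and 561.8 on the +/+ arrays and 17.7, 21.2 and 15.9 on the -/- arrays. The difference was -4.96 (SE 0.105, limma adjusted p = 2.27e-06). Olig2 read 288.3, 317.8 and 235.5 in +/+ and 10.1, 12.5 and 10.3 in -/- cells, a difference of -4.55 (SE 0.126, limma adjusted p = 7.96e-06). Both genes were clearly above background in all +/+ arrays and below it in all -/- arrays. With the -/- arrays set to the background bound, the fall was at least 15.4-fold for Olig1 and at least 7.20-fold for Olig2. Of the 10 tested genes of the oligodendrocyte and motor neuron list these were the only called ones, and 4 of the 10 had a difference above 0. Of all tested genes 2.77% were called.

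The Olig falls were far larger in ES cells than at the later stages. In neural progenitors the same genotype contrast gave -0.53 for Olig1 (limma adjusted p = 0.017, 18 arrays) and -0.33 for Olig2 (limma adjusted p = 0.045, 18 arrays), and in neurons -0.03 and 0.03. The ES cell effect minus the progenitor effect was -4.43 for Olig1 (limma adjusted p = 7.92e-10) and -4.22 for Olig2 (limma adjusted p = 2.92e-11). Against neurons it was -4.93 (limma adjusted p = 1.48e-10) and -4.58 (limma adjusted p = 1.56e-11). A gene near background in +/+ cells can show no large fall. How far the Olig1 and Olig2 signal of +/+ progenitors and neurons lay above background is not given here. Its part in these differences was not tested.

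Mid1 and Erdr1, neighbours on the X chromosome, fell together. Mid1, a ubiquitin ligase that binds microtubules, read 240.6, 234.6 and 222.4 in +/+ and 59.1, 39.8 and 49.8 in -/- cells. Its difference was -2.22 (SE 0.132, limma adjusted p = 0.00089). Erdr1 read 3359, 2960 and 3094 in +/+ and 1733, 1896 and 1806 in -/- cells, a difference of -0.79 (SE 0.072, limma adjusted p = 0.0044). Both falls were present at the other stages. Mid1 differed by -1.54 in progenitors and -1.99 in neurons, and neither value was shown to differ from that in ES cells (limma adjusted p = 0.064 and 0.556, 18 arrays).

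Tmem267 rose most. It read 21.6, 29.0 and 26.1 on the +/+ arrays, all below the background bound, and 176.4, 169.5 and 166.7 on the -/- arrays. The measured difference was 2.70 (SE 0.104, limma adjusted p = 6.11e-05), a rise of at least 4.38-fold over background. The next 2 tested genes on chromosome 13 were also called higher. For 4833420G17Rik the intensities were 566.0, 520.4 and 496.2 in +/+ and 882.7, 835.7 and 787.7 in -/- cells, a difference of 0.66 (SE 0.075, limma adjusted p = 0.012). Leaving out -/- replicate 2 took that adjusted p to 0.070.

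The last gene of that stretch was less clear. Paip1, which encodes a partner of the poly(A)-binding protein, was called higher from its brightest probe set (0.47, SE 0.090, limma adjusted p = 0.043), yet its other probe sets gave -0.44 and -0.33, and the mean over them was -0.10. Tmem267 was higher in progenitors (3.23) and neurons (2.81) as well, and neither effect was shown to differ from that in ES cells (limma adjusted p = 0.068 and 0.740, 18 arrays).

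The promoter windows of Olig2, Tmem267 and Mid1 are shown because these genes have the largest changes among those with a RefSeq window, and because CpG content is the promoter feature known for HMGN1. Each window runs from 250 bases before to 50 bases after an annotated start in the GRCm38.p6 build, and capitals mark CpG dinucleotides (the letters CG, which read the same on both strands). The Olig2 window lies at chr16:91225300-91225599 on the + strand and holds 25 CpG pairs at 65.0% GC. The Tmem267 window, at chr13:119488223-119488522 on the + strand, holds 50 CpG pairs at 76.0% GC. For Mid1, chrX:169879369-169879668 on the + strand is the one of its 3 windows with the highest CpG ratio, and it holds 13 pairs at 55% GC.
Olig2: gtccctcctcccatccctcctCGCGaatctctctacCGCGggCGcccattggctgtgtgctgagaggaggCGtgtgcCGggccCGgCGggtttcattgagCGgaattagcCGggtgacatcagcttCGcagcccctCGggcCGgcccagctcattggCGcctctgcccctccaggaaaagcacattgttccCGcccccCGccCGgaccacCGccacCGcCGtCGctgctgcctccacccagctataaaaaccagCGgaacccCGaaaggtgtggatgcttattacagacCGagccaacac
Tmem267: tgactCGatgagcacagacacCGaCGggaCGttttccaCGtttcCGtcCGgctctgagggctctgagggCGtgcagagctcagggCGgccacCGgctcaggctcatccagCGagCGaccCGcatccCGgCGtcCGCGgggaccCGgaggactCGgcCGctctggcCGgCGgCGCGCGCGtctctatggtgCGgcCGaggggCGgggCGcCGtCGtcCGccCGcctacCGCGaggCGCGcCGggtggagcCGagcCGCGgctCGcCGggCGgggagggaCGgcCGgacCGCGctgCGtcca
Mid1: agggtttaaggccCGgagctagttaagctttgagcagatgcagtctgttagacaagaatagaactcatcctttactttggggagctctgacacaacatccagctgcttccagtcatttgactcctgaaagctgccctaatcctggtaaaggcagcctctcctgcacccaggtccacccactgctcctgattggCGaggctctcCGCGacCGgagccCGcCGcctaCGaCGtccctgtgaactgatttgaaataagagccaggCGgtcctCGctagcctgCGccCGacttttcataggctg

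The observed over expected CpG ratio was 0.815 for Olig2, 1.16 for Tmem267 and 0.579 for Mid1. With CpG-rich defined as a ratio of at least 0.6 and a GC content of at least 50%, 33.5% of all 32851 windows were CpG-rich, Olig2 and Tmem267 among them and Mid1 not. Among tested genes with a window 69.8% were CpG-rich, a gene with several windows being counted as CpG-rich if any of them was. Of the 30 largest changes, 12 rises and 11 falls had a window, and 6 of those rises and 8 of those falls were CpG-rich.

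Across the tested genes, a smaller share was called at CpG-rich than at CpG-poor promoters, which is given as a description without a test. Outside chromosome 14, which is described below, 110 of 7160 genes with a CpG-rich promoter were higher and 30 lower, and 80 of 3108 with a CpG-poor promoter were higher and 16 lower. The shares called were 1.96% and 3.09%. The median differences were 0.06 and 0.02, both close to the 0.05 of all genes outside chromosome 14. CpG-rich genes were brighter, with a median level of 8.68 against 6.71 (log2). Among genes of middling signal, when all were cut into 3 equal classes, the shares called were 2.44% of CpG-rich and 6.35% of CpG-poor genes, and among the brightest 1.73% and 2.49%. In the dimmest class they were close, at 1.55% and 1.69%, and there falls made up 0.777% of CpG-rich and 0.35% of CpG-poor genes.

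Several signalling genes were among the stable changes. Bmp4, which supports ES cell self-renewal with LIF and patterns the mesoderm, read 292.2, 288.0 and 323.9 in +/+ and 119.9, 126.1 and 147.2 in -/- cells. Its difference was -1.20 (SE 0.092, limma adjusted p = 0.0023). The gene lies on chromosome 14, whose genes were lower as a group (below), but its fall was far larger than their median of -0.23. In progenitors the Bmp4 difference was 1.09, opposite in sign to that in ES cells. Of the 18 tested genes of the BMP and Id list, Bmp4 was the only one called, and the median of the list was 0.02. Of all tested genes 2.77% were called.

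Ntn1, the axon guidance ligand netrin-1, read 146.3, 142.6 and 141.0 in +/+ and 75.6, 79.1 and 72.5 in -/- cells. The arrays of each group lay close together and far from the other group, with a difference of -0.91 (SE 0.060, limma adjusted p = 0.0012). Ntn1 had the opposite sign later, with differences of 1.58 in progenitors and 1.17 in neurons. In its list of 25 tested axon guidance genes, the receptor gene Epha1 was the other called member, and it was higher (0.56, SE 0.110, limma adjusted p = 0.047). The Epha1 call ended without any 1 of the arrays (adjusted p 0.050 to 0.143). Of all tested genes 1.81% were higher and 0.961% lower.

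Pim2, a serine/threonine kinase gene that LIF induces through STAT3, read 530.8, 521.6 and 568.9 in +/+ and 969.8, 1158 and 1035 in -/- cells. The rise of 0.96 (SE 0.081, limma adjusted p = 0.0033) was opposite in sign to the other called genes of its list. Of the 20 tested LIF, JAK and STAT3 genes, Klf4 and Tfcp2l1 were lower, and the list median was -0.10. Of all tested genes 0.961% were lower and 1.81% higher. Socs3, the feedback inhibitor of the same pathway, differed by -0.31 without reaching the threshold (SE 0.067, limma adjusted p = 0.059).

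Efhc2, an X-linked gene for a protein of cilia, read 218.7, 265.5 and 228.3 in +/+ and 583.6, 612.7 and 686.7 in -/- cells (difference 1.40, SE 0.096, limma adjusted p = 0.0012). Usp17la, a deubiquitinase gene of a multicopy family, read 77.8, 78.2 and 83.3 in +/+ and 175.2, 184.0 and 172.3 in -/- cells (difference 1.14, SE 0.062, limma adjusted p = 0.00055). For both genes, the ES cell effect differed from the progenitor and the neuron effect (limma adjusted p = 5.44e-07 to 0.00048, 18 arrays). Usp17la was the only one called of 5 tested genes of the two-cell-like state, where 1.81% of all tested genes were higher. The two-cell-like state is a rare state of ES cells that resembles the early embryo. The Usp17la probe set may read other copies of the family.

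Wt1, a zinc-finger regulator of kidney and gonad development, rose from 122.6, 147.0 and 136.0 to 243.1, 272.6 and 297.8 (difference 0.998, SE 0.099, limma adjusted p = 0.0070). Prickle1, of the planar cell polarity pathway, read 114.8, 114.3 and 117.6 in +/+ and 192.9, 216.6 and 215.1 in -/- cells (difference 0.84, SE 0.067, limma adjusted p = 0.0026). Prom1, the membrane glycoprotein CD133, read 155.4, 188.1 and 172.2 in +/+ and 301.4, 293.6 and 295.9 in -/- cells (difference 0.79, SE 0.079, limma adjusted p = 0.0072). All 3 genes were high on every -/- array and low on every +/+ array, as the choice of genes required. Prom1 was also higher in -/- progenitors (0.42) and neurons (1.17).

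Besides that of Uba1y, the remaining stable changes were those of Csn3, Kdelr3 and Cfap20dc. Csn3, the kappa-casein gene, rose from 37.1, 37.0 and 33.1, all below the background bound, to 63.4, 68.1 and 72.3, at least 1.75-fold (limma adjusted p = 0.0033). Kdelr3, a receptor that returns proteins to the endoplasmic reticulum, fell from 334.2, 298.7 and 301.4 to 173.7, 170.1 and 186.3 (difference -0.81, SE 0.071, limma adjusted p = 0.0037). Cfap20dc, on chromosome 14, fell from 150.7, 125.7 and 139.3 to 72.3, 75.7 and 71.7 (difference -0.91, SE 0.079, limma adjusted p = 0.0037). Its neighbour Fhit, an enzyme that cleaves diadenosine triphosphate, fell with it (-1.31, SE 0.155, limma adjusted p = 0.013), although leaving out any one of the -/- arrays took that adjusted p to as much as 0.058.

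Among the other 6 large rises were Ms4a4d (1.16), Shisa3 (0.98), an antagonist of Wnt and FGF receptors, and Spink1 (0.89), a trypsin inhibitor. Cacng8 (0.84), an auxiliary subunit of AMPA receptors, Pik3r3 (0.83), a regulatory subunit of PI3-kinase, and Gadd45g (0.77), a growth arrest gene, completed them. Among the other falls besides Fhit were Grik3 (-1.01), a kainate receptor subunit, Inhbb (-0.89), the beta-B subunit of activin and inhibin, and Cryab (-0.80), a small heat shock protein. Adcy2 (-0.77), an adenylate cyclase, Emp1 (-0.75), an epithelial membrane protein, and Jdp2 (-0.75), a repressor of AP-1, followed. The limma adjusted p of the rises lay between 0.016 and 0.048 and that of the falls between 0.013 and 0.048. In each of these 13 genes, Fhit included, leaving out 1 array ended the call in at least 3 of 6 cases, with adjusted p of up to 0.144 (Spink1). Second probe sets showed smaller differences, of 0.00 for Cacng8, -0.03 for Emp1, -0.20 for Jdp2 and -0.21 for Inhbb, and the mean over its probe sets ended the Emp1 call (limma adjusted p = 0.052).

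**Figure D2:**
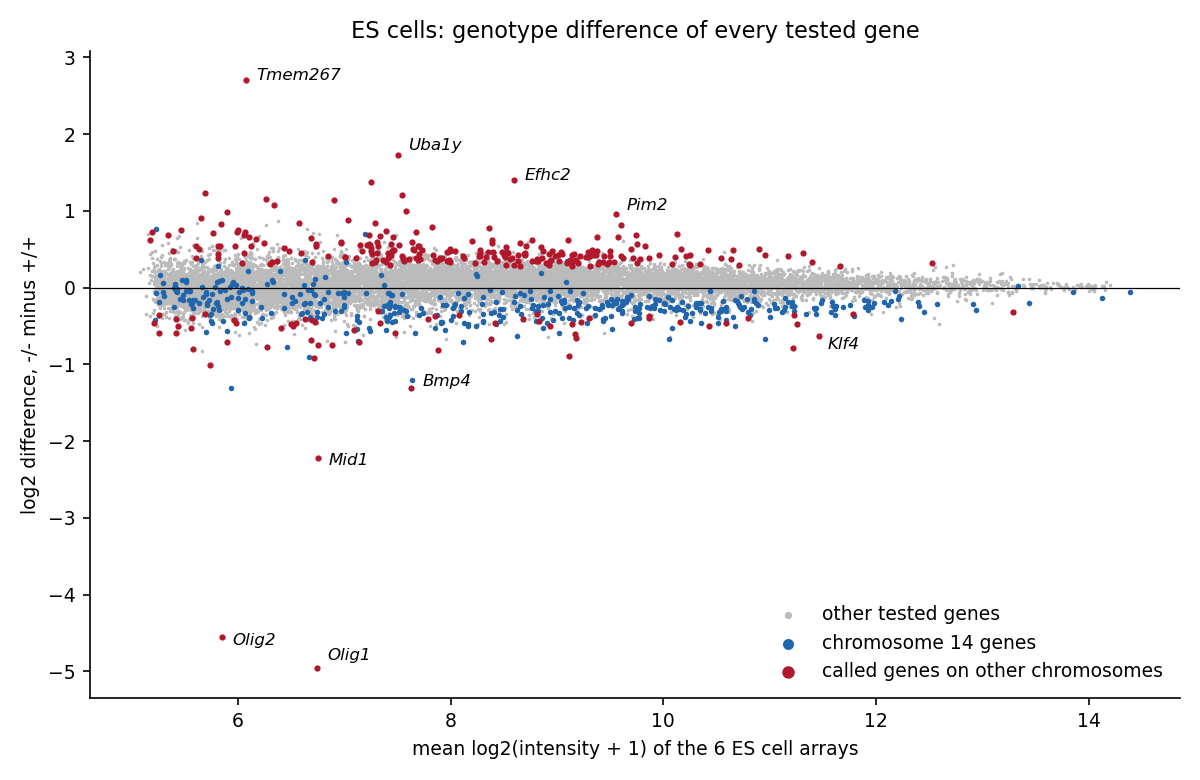
Log2 difference (-/- minus +/+) of each of the 13220 tested genes against its mean log2(intensity + 1) over the 6 ES cell arrays, with chromosome 14 genes in blue, called genes of other chromosomes in red and all other genes in grey. Olig1 (-4.96) and Olig2 (-4.55) stand alone at the bottom, and the blue points form a band below 0.

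Falls were concentrated on chromosome 14. Of 440 tested genes there, 63 were lower (14.3%) and 1 was higher, Sall2 (0.70), a zinc-finger factor. Their median difference was -0.23, a 1.18-fold fall, and 90.9% of the genes lay below 0. Chromosomes 1 to 13, 15 to 19 and X had medians that ran from 0.01 to 0.08, and 0% to 2.20% of genes were lower. Chromosome 14 thus held 49.6% of all genes called lower. That share was 39.5% in the 18-array fit and 32.1% to 42.1% with 1 array left out, the lowest without +/+ replicate 2, and with the replicate number as a block 3 of 15 falls (20%) lay there. Outside chromosome 14, 238 genes were higher and 64 lower among 12780.

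The shift was present on each -/- array. Against the mean of the +/+ arrays, the median chromosome 14 gene lay at -0.25, -0.23 and -0.20 on the -/- arrays and at 0.00, 0.02 and -0.02 on the +/+ arrays. All other genes had medians of 0.03, 0.04 and 0.08 on the same -/- arrays. Among chromosome 14 genes, 62.0% had all -/- arrays below all +/+ arrays, against 8.52% of all tested genes. The median stayed between -0.24 and -0.22 when any 1 array was left out, while the number of called genes dropped to between 5 and 11 (11 without +/+ replicate 3). The 18-array fit called 244 of the 440 lower (55.5%), against 4.67% of all tested genes.

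The shift ran along the whole chromosome. When its genes were cut into 10 equal stretches by position, the median of each lay between -0.29 and -0.17, with 3 to 11 called falls per stretch. In 190 such stretches of the other chromosomes the median lay between -0.04 and 0.13. Among chromosome 14 genes of the brightest class, 99.4% lay below 0, with a median of -0.25; in the dimmest class the median was -0.12. Progenitors and neurons had chromosome 14 medians of -0.14 and -0.12, also the lowest of the autosomes and the X chromosome.

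**Figure D3:**
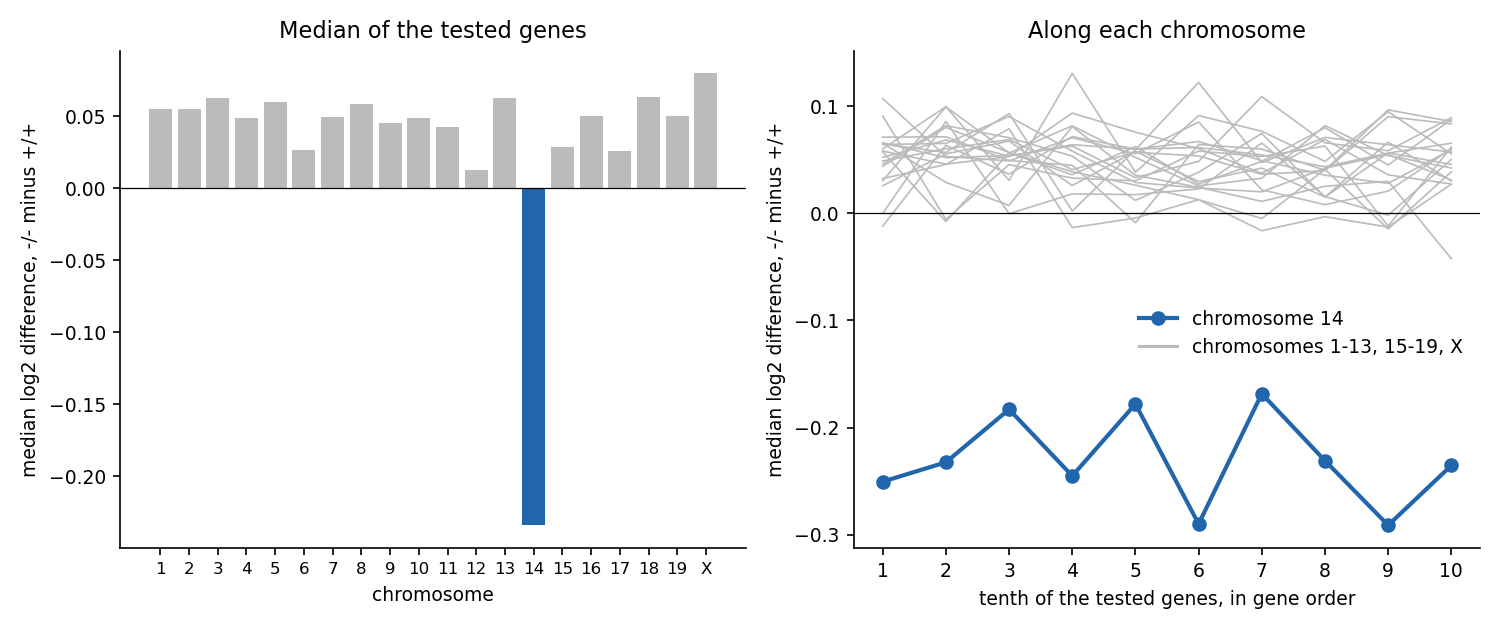
Left, median log2 difference (-/- minus +/+) of the tested genes of each chromosome; right, the same for 10 equal stretches of genes along each chromosome, with chromosome 14 in blue. Chromosome 14 has a median of -0.23 and lies below every other chromosome at each of its 10 stretches.

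Some chromosome 14 genes moved well beyond the group. Besides Bmp4, Fhit and Cfap20dc, the largest falls were Tgm1 (-0.70, SE 0.082, limma adjusted p = 0.012), a transglutaminase of the skin barrier, and Rbm26 (-0.67, SE 0.099, limma adjusted p = 0.025), an RNA-binding protein. Omission of +/+ replicate 1, -/- replicate 1 or -/- replicate 2 ended the Tgm1 call (adjusted p up to 0.071). The Rbm26 call survived only the omission of -/- replicate 2, and another of its probe sets gave 0.02.

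Genes of the Y chromosome were higher in -/- cells. Of 6 tested Y-linked genes, 4 were higher, and Sry and Orly (0.11, SE 0.101, limma adjusted p = 0.559) were not called. Eif2s3y, a translation initiation factor subunit, read 865.9, 859.0 and 901.6 in +/+ and 1500, 1338 and 1445 in -/- cells (difference 0.70, SE 0.066, limma adjusted p = 0.0051). Kdm5d, a histone demethylase, read 170.0, 158.2 and 147.8 in +/+ and 271.0, 263.6 and 251.4 in -/- cells (difference 0.72, SE 0.072, limma adjusted p = 0.0072). The +/+ cells thus had Y-linked signal above background too, at a lower level.

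Uty rose by 0.61 (SE 0.084, limma adjusted p = 0.021), and its second probe set gave 0.94. With 1 array left out the adjusted p of Uty was up to 0.101, and it passed the threshold only without +/+ replicate 2. Uba1y, the Y-linked ubiquitin-activating enzyme, read 81.5, 109.6 and 107.5 in +/+ and 320.0, 338.7 and 332.9 in -/- cells. Its difference of 1.73 (SE 0.115, limma adjusted p = 0.0012) was the largest of the group from the probe sets used. A second Uba1y probe set differed by 0.63 and was not called (limma adjusted p = 0.103, with every probe set tested). Sry and Xist, the RNA that silences an X chromosome in females, were not called (-0.05 and 0.10, limma adjusted p = 0.767 and 0.735). Kdm5d, Eif2s3y and Uty were also higher in -/- progenitors (0.53 to 0.61) and neurons (0.42 to 0.66), whereas Uba1y was not called there.

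Within 10 Mb of Hmgn1 on chromosome 16, 67 genes were tested, with 4 higher (5.97%), 4 lower (5.97%) and a median of 0.05, against 1.81% and 0.961% of all tested genes. The falls were Hmgn1, Olig1, Olig2 and Cryzl1 (-0.40, SE 0.079, limma adjusted p = 0.048). The rises were Bach1 (0.31), a repressor of heme-responsive genes, Cbr3 (0.45), a carbonyl reductase, Hunk (0.47), a kinase, and Urb1 (0.40), a ribosome biogenesis factor. The calls of Bach1, Hunk, Urb1 and Cryzl1 ended without any 1 of the 6 arrays, and that of Cbr3 held only without +/+ replicate 2.

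Most core pluripotency factors were not called, and neither were most tested genes, of which 2.77% were called. Pou5f1, which encodes OCT4, read 5953, 5798 and 5452 in +/+ and 5714, 5737 and 5892 in -/- cells, and the groups overlapped (difference 0.01, SE 0.061, limma adjusted p = 0.922). Sox2 differed by -0.05 (SE 0.056, limma adjusted p = 0.598). Of all tested genes 0.961% were lower, and of 17 tested core factors 1 was called, Nanog. It read 4033, 4141 and 3774 in +/+ and 3016, 3336 and 3091 in -/- cells, a difference of -0.34 (SE 0.069) that lay just under the threshold (limma adjusted p = 0.04998) and did not pass it in the 18-array fit (limma adjusted p = 0.068).

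Naive factors tended to read lower. Of 21 tested, Klf4 and Tfcp2l1 fell and Fbxo15 rose, where 0.961% of all tested genes were lower and 1.81% higher. The median was -0.17, with 16 of the 21 below 0, while the median of all tested genes was 0.04. The 18-array fit called 6 lower and 2 higher, where it called 4.67% of all tested genes lower and 11.7% higher. Without +/+ replicate 3 it called 5 lower and 1 higher. Klf4, a factor that sustains self-renewal, read 4010, 3387 and 3207 in +/+ and 2356, 2216 and 2246 in -/- cells, a difference of -0.63 (SE 0.091, limma adjusted p = 0.023). Its second probe set gave -0.55. Tfcp2l1, another naive factor, read 720.5, 717.2 and 660.5 in +/+ and 496.4, 484.0 and 562.2 in -/- cells, a difference of -0.45 (SE 0.078, limma adjusted p = 0.036).

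Fbxo15, an F-box gene used as a reporter of the ES cell state, went the other way, from 2427, 2301 and 2467 to 3068, 2934 and 3107 (difference 0.34, SE 0.061, limma adjusted p = 0.037). Among naive factors that missed the threshold, Klf5, on chromosome 14, differed by -0.50 (limma adjusted p = 0.076), Prdm14 by -0.46 (0.112), Esrrb by -0.38 (0.080) and Nr5a2 by -0.37 (0.062), while Dppa3 differed by 0.28 (0.091). The calls of Tfcp2l1, Fbxo15 and Nanog ended when any 1 array was left out, and Klf4 stayed called only without +/+ replicate 3 (adjusted p 0.042 there, up to 0.099 otherwise).

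Primed epiblast genes leaned the opposite way. Of 16 tested, Fgf5, Pou3f1 and Dnmt3b rose and none fell, the median was 0.18, and 15 of the 16 were above 0, while 1.81% of all tested genes were higher and 60.9% lay above 0. After quantile normalization 1 of the 16 was called, the median was 0.15 and 14 lay above 0. The 18-array fit called 6 higher, where it called 11.7% of all tested genes higher, and 5 without +/+ replicate 3. Pou3f1, the POU factor OCT6, read 1410, 1610 and 1806 in +/+ and 2198, 2386 and 2255 in -/- cells, a difference of 0.51 (SE 0.096, limma adjusted p = 0.043). Its groups did not overlap, though the +/+ arrays spread widely.

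Dnmt3b, a de novo DNA methyltransferase, read 5263, 5421 and 5196 in +/+ and 6332, 6581 and 6857 in -/- cells, a difference of 0.32 (SE 0.060, limma adjusted p = 0.043). Fgf5, the classic marker of the primed epiblast, read 27.5, 31.2 and 24 in +/+, below the background bound, and 39.1, 51.7 and 47.4 in -/- cells, so its level stayed near background (at least 1.19-fold, limma adjusted p = 0.036). Otx2, also on chromosome 14, and Lefty2, a Nodal antagonist, both differed by 0.34 without reaching the threshold (limma adjusted p = 0.054 and 0.060). Omission of any 1 array ended the calls of Fgf5, Pou3f1 and Dnmt3b (adjusted p 0.050 to 0.141).

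**Figure D4:**
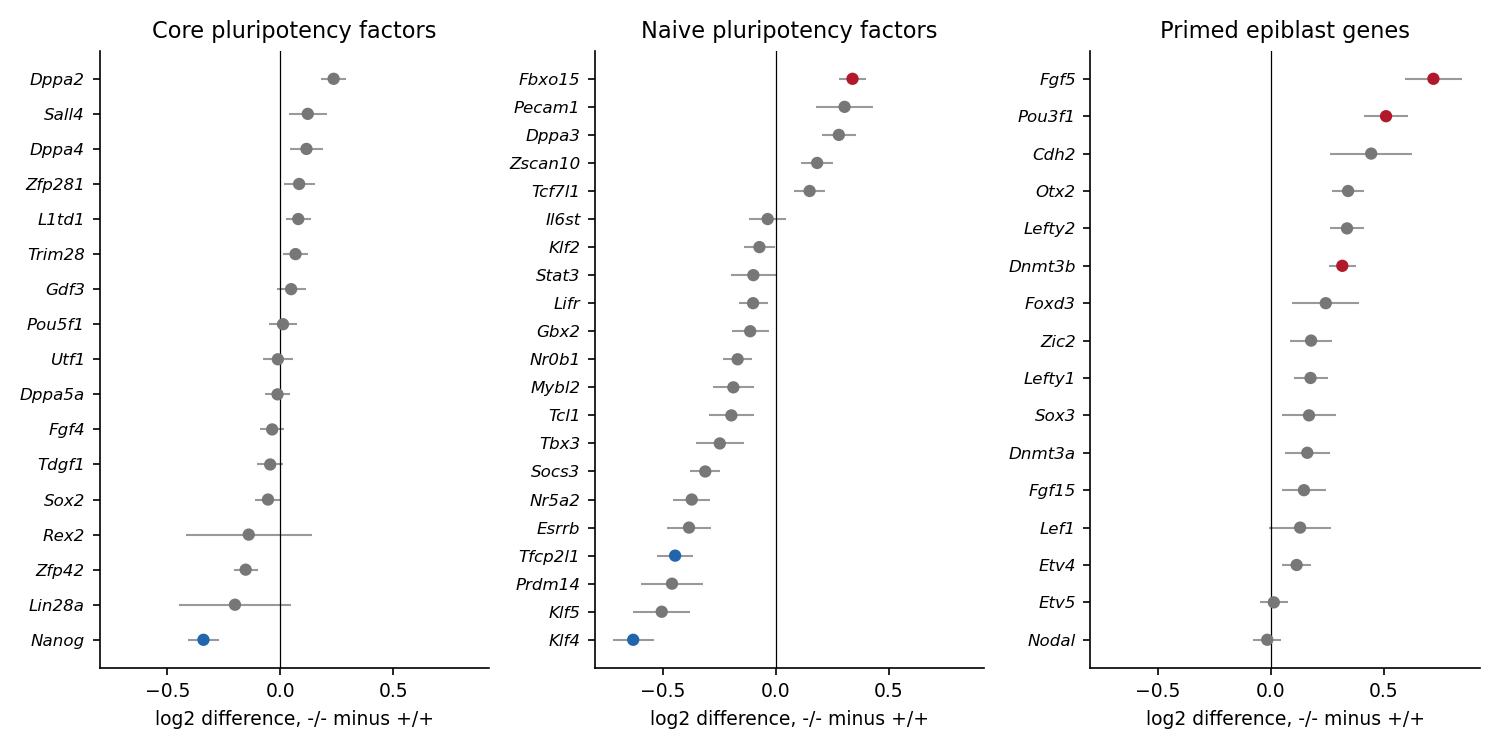
Log2 difference (-/- minus +/+) with its SE for each tested member of the core pluripotency, naive and primed gene lists in ES cells; blue marks genes called lower, red genes called higher and grey the rest. Naive factors lie mostly left of 0 (16 of 21) and primed genes mostly right of it (15 of 16).

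Most neural genes were not called, and neither were most tested genes, of which 1.81% were higher and 0.961% lower. Of 19 tested progenitor genes, Prom1 and the Notch ligand genes Dll3 (0.49, SE 0.085, limma adjusted p = 0.035) and Dll1 (0.42, SE 0.067, limma adjusted p = 0.030) rose, and Sox21, on chromosome 14, fell (-0.63, SE 0.106, limma adjusted p = 0.033). The median of the list was 0.01. Of 18 neuronal genes, 3 fell: Stmn2 (-0.48, SE 0.081, limma adjusted p = 0.033), a regulator of microtubules, Mapt (-0.46), the tau gene, and Nefl (-0.34), a neurofilament gene on chromosome 14. Leaving out any 1 array ended the calls of Dll1, Dll3, Stmn2, Mapt and Nefl, and all omissions except that of +/+ replicate 1 ended that of Sox21.

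Markers of endoderm (0 of 17 tested), mesoderm (0 of 14) and trophoblast (0 of 17) had no called member, where 2.77% of all tested genes were called. The 18-array fit called 3 endoderm genes higher, 2 mesoderm genes lower and 3 trophoblast genes lower, where it called 11.7% of all tested genes higher and 4.67% lower. Of 21 fibroblast genes, Acta2 (-0.66, SE 0.132), smooth muscle actin, and Fstl1 (-0.46, SE 0.067) fell and Pdgfrb (0.32, SE 0.061) rose. Of all tested genes 0.961% were lower and 1.81% higher. The list median was -0.11, and none of the fibroblast calls held when 1 array was left out. Fewer cells of a type and less RNA per cell cannot be told apart in these bulk samples. The summed fibroblast markers given above were also lower in -/- cells, though single markers went both ways. Their part in the pluripotency results was not tested.

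Among metabolic genes, those of cholesterol synthesis leaned upward. Of 20 tested, Sc5d, a sterol desaturase, was the only one called (0.33, SE 0.063, limma adjusted p = 0.044; 0.075 to 0.139 with 1 array left out). However, 17 of 20 lay above 0, the median was 0.13, and 11 had all -/- arrays above all +/+ arrays, against 21.3% of all tested genes. The 18-array fit called 7 higher and 1 lower, where it called 11.7% of all tested genes higher and 4.67% lower. Without +/+ replicate 3 it called 6 higher and 1 lower. Hmgcs1, the synthase before the rate-limiting step, read 5752, 5834 and 6061 in +/+ and 6805, 7097 and 7404 in -/- cells (difference 0.27, SE 0.061, limma adjusted p = 0.063). Of its other bright probe sets, one read 5076, 5189 and 5214 in +/+ and 4800, 4842 and 4546 in -/- cells (difference -0.13), with no overlap in the opposite direction, and another differed by 0.03. Mvd (0.28, limma adjusted p = 0.056; 0.03 for its second probe set) and Hsd17b7 (0.31, limma adjusted p = 0.076), enzymes of the same pathway, were likewise short of the threshold. After quantile normalization none of the 20 was called, and 15 lay above 0.

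Of 25 hypoxia and glycolysis genes, Vegfa, the endothelial growth factor (-0.38), and Ero1a, an oxidase of the endoplasmic reticulum that lies on chromosome 14 (-0.40), were lower. The list median was -0.07, and of all tested genes 0.961% were lower. Single members were called in several other lists: Spry2 (-0.38), an inhibitor of ERK signalling on chromosome 14, Ccnd2 (-0.47), the cyclin D2 gene, and Ddx4 (-0.40), a germ cell helicase, fell. Plk3 (0.35), a stress kinase among 22 p53 targets, Bmi1 (0.36), a Polycomb subunit, and Tek (0.60), an angiopoietin receptor, rose. Macroh2a1 (-0.46), which encodes a variant histone found on silent chromatin, fell. For each of these but Tek, no omission of an array left the call standing, and Tek stayed called in 2 of 6 omissions.

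No member was called in the lists for Nodal, Wnt and Hedgehog signalling, linker histones, chromatin remodellers, DNA repair, apoptosis, immediate early genes, ATF4 targets, interferon response, imprinted genes, Hox genes and cell adhesion. Over the 39 lists 644 distinct genes were tested, of which 20 (3.11%) were higher and 20 (3.11%) lower, against 1.81% and 0.961% of all tested genes. The lists were chosen with earlier results of these data known, and they hold Hmgn1, Olig1, Olig2 and the Y-linked genes. The shares are therefore a description only.

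The effects at the other stages show how far the ES cell changes were shared. Of the 15 named rises, Tmem267, Csn3 and Prom1 were also higher in -/- progenitors, 4 were lower there, and 8 were not called. Of the 15 named falls, 7 were also lower in progenitors and 3, Bmp4, Ntn1 and Emp1, were higher. The ES cell effect differed from the progenitor effect in 13 rises and 11 falls, and from the neuron effect in 14 and 12 (limma interaction, 18 arrays), where 16.1% and 15.5% of all tested genes differed. These genes were picked for a large ES cell effect, so such differences are a description and no measure of how often effects are stage-specific.

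**Figure D5:**
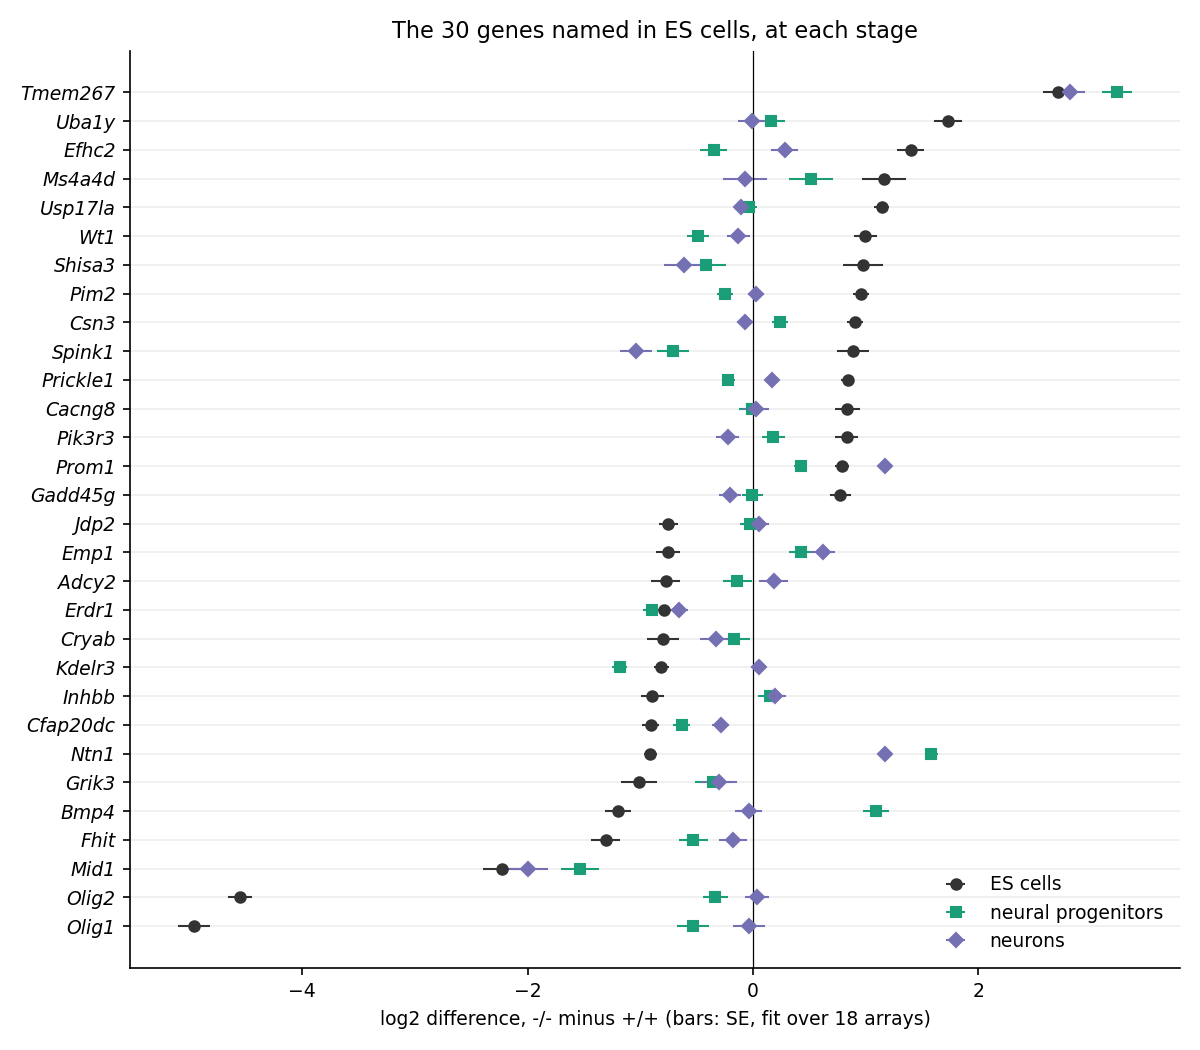
Log2 difference (-/- minus +/+) with its SE from the 18-array fit for the 30 named genes in ES cells (dots), neural progenitors (squares) and neurons (diamonds), ordered by the ES cell value. Tmem267, Mid1 and Erdr1 lie on one side of 0 at each stage, while Olig1 and Olig2 are far from 0 in ES cells alone and Ntn1 changes side.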

How the data were processed

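The authors deposited 1 intensity per probe set and array on a linear scale, for which the submitters' processing notes name RMA and limma, without version or order. Each array received cRNA from 6 ug of total RNA, per the labels' protocols. Arrays give no read depth; their number sets the precision. Of 45101 probe sets, 34958 had 1 gene symbol, 932 several and 9211 none in the platform annotation; symbols were updated through the Entrez ID (34754 matched), and only those with 1 symbol were used. Values were taken to log2(value + 1), filtered as stated, and the probe set with the highest mean stood for a gene. limma 3.58.1 in R 4.3.3 (lmFit, eBayes) was fitted to the 6 ES cell arrays with 4 residual degrees of freedom; effects at other stages and interactions came from 6 group means over 18 arrays. For a single gene, groups of 3 cannot reach an exact permutation p below 0.1, so only the fit across genes was used. The fit was tested on simulated data with known changes.

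Replicate numbers did not pair the samples: deviations of same-numbered arrays correlated at 0.082, 0.050 and -0.042. Named genes were the 15 largest rises and falls among called genes with arrays that did not overlap and a brighter mean above the bound, passing over clone and predicted symbols; HMGN, Y-linked genes and Xist; up to 4 called members per list; the largest on chromosome 14; and called genes near Hmgn1. Further list members and neighbours were named after their values were seen. Chromosomes, gene order and promoters are from RefSeq (GRCm38.p6); 10602 tested genes had a promoter window. The 39 lists were written for this work, and they and the comparison were chosen with earlier results of these data known.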

Additional observations from a re-analysis of the deposited data

Results flagged for a closer look

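Of 73 called genes that were followed through the alternatives, 20 had a genotype effect of the opposite sign that was also called at a later stage, with a difference between the stages that passed limma's interaction test over 18 arrays. Of all tested genes, 15.7% were called in progenitors and 11.8% in neurons, and 16.1% and 15.5% passed the interaction tests. The 73 were picked for an ES cell effect, so the count of 20 is no measure of how often signs reverse. Against progenitors, the effect in ES cells minus that in progenitors was 1.49 for Wt1 (limma adjusted p = 2.64e-06), 1.21 for Pim2 (8.77e-07), 1.60 for Spink1 (4.71e-05) and 1.06 for Prickle1 (4.47e-07). For genes that fell in ES cells and were higher in -/- progenitors it was -2.29 for Bmp4 (1.83e-07), -2.49 for Ntn1 (1.77e-11), -1.18 for Emp1 (6.9e-05) and -1.06 for Fstl1 (5.55e-06). Hmgn5, the family member that was higher in -/- ES cells by 0.38, differed by -0.43 in progenitors and -0.23 in neurons, with differences between stages of 0.81 (2.06e-06) and 0.61 (7.81e-05).

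Genes of the pluripotency lists were among them. Fbxo15 was higher by 0.34 in -/- ES cells and differed by -1.71 in progenitors and -1.27 in neurons, so that the stages differed by 2.05 (limma adjusted p = 1.18e-09) and 1.61 (5.28e-08). The primed genes gave 1.29 for Fgf5 (2.44e-05) and 0.985 for Pou3f1 (0.00041) against progenitors, and 1.14 for Pou3f1 (0.00019) and 0.793 for Dnmt3b (0.0010) against neurons. For Tek the differences were 1.28 (1.45e-05) and 1.65 (2.68e-06), and for Cbr3 1.23 (2.18e-06) and 1.19 (8.12e-06). Against progenitors they were 0.942 for Dll1 (8.77e-07), 0.578 for Bmi1 (0.00064) and 0.835 for Sfmbt2 (2.67e-06).

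Against neurons, the difference was 1.59 for Shisa3 (limma adjusted p = 0.00066), 1.93 for Spink1 (1.68e-05), -2.08 for Ntn1 (1.48e-10), -1.37 for Emp1 (3.57e-05) and 0.802 for Hunk (3.69e-05). With any 1 of the 6 ES cell arrays left out, the ES cell call held each time for 5 of the 20 genes (Bmp4, Ntn1, Pim2, Prickle1 and Wt1) and never for 10 (Bmi1, Dll1, Dnmt3b, Fbxo15, Fgf5, Fstl1, Hmgn5, Hunk, Pou3f1 and Spink1). Sfmbt2 lost it in 2 omissions, Shisa3 and Tek in 4, and Cbr3 and Emp1 in 5. All were chosen because they were called in ES cells.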

How the results depend on the processing

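The counts of called genes depended on the spread estimate and on single arrays. Of 73 called genes followed through the alternatives, 19 passed the threshold in all 19, and 72 kept their sign in all of them, the exception being Paip1. The signs could hardly change and are no measure of robustness. These genes were picked as called, their arrays did not overlap, and several alternatives leave the difference itself untouched. Against 239 rises and 127 falls, all 18 arrays gave 1541 and 617, and 921 and 538 without ES cell +/+ replicate 3, an alternative added after seeing the data. A trended, robust prior gave 938 and 402, every probe set tested singly 113 and 57, and no filter 105 and 55. A filter at the array median gave 369 rises, a filter on 3 of 18 arrays 156, and quantile normalization 144. Leaving out 1 array, which lowers the residual degrees of freedom, gave 17 to 85 rises and 13 to 32 falls. With the replicate number as a block there were 30 rises and 15 falls, and not every array correlated best with its own number (+/+ replicate 2 did so with -/- replicate 3, at 0.112). The chromosome 14 median was -0.27 after quantile normalization. For the other changes the cause was not tested.

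Values that changed sign were those of Hmgn3, which ran from -0.573 to 0.212 with 1 array left out (0.212 also with 18 arrays without +/+ replicate 3; limma adjusted p = 0.237 and 0.040), Paip1 as a mean of probe sets (-0.0997), Pou5f1 (-0.0234 to 0.040 with 1 array left out, -0.0234 without +/+ replicate 3 in both fits, and -0.00131 without -/- replicate 3), Sry (-0.138 to 0.0341, the latter without +/+ replicate 3 in both fits) and Xist (-0.0656 to 0.272). Signal near background limits folds for Olig1, Olig2, Tmem267, Csn3 and Fgf5.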

Other observations

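Some patterns were noticed after the values were seen and are given as values only. Of 4 tested Notch ligand genes 3 were higher in -/- ES cells: Jag1, which read 242.9, 277.6 and 283.0 in +/+ and 338.6, 360.2 and 372.6 in -/- cells (0.42, SE 0.079, limma adjusted p = 0.043), and Dll1 and Dll3. None of 10 tested Notch receptor and Hes or Hey genes was called from 6 arrays, and 3 were called higher from 18, as were 11.7% of all tested genes. Of 282 tested genes named Zfp and a number, 10 (3.55%) were higher and 0 lower, against 1.81% and 0.961% of all genes; Zfp608 (0.65) and Zfp958 (0.54) changed most among those looked at. With 18 arrays 63 (22.3%) were higher and 5 lower, against 11.7% and 4.67% of all tested genes.

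On the X chromosome, 22 of 421 tested genes (5.23%) were higher and 2, Mid1 and Erdr1, were lower, with a median of 0.08. Of all tested genes 1.81% were higher and 0.961% lower, and their median was 0.04. On chromosome 14, 5 of 439 pairs of neighbouring tested genes were called in the same direction. Outside chromosome 14, 18 of 12687 such pairs were, 15 of them higher. One such pair is Gm13261 and Sfmbt2, a Polycomb-like gene, on chromosome 2. Sfmbt2 read 574.3, 630.5 and 613.8 in +/+ and 954.1, 1014 and 906.9 in -/- cells (0.66, SE 0.070, limma adjusted p = 0.0090), and Gm13261 rose by 1.37 (limma adjusted p = 0.0033). Omission of +/+ replicate 1 or -/- replicate 2 took the adjusted p of Sfmbt2 to as much as 0.053. Among predicted genes passed over in the naming, Gm1673 fell by 1.31, AF067061 rose by 1.20 and Gm21283 by 1.07.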
